A study of Danio rerio with 4 samples.

Results

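Peroxisomal enzymes, transporters and peroxins were compared between whole zebrafish larvae mutant for uhrf1 and wildtype larvae. The genes were chosen by annotated symbol: uox, agxta, agxtb, cat, hao1, dao.1, phyh, and every symbol that begins with pex and a digit, with acox or with abcd. The rule found 13 genes, each with a single probe set, of 8793 genes on the array. They comprise 6 enzymes, 2 transporters and 5 peroxins, while agxtb and the acox genes matched no single-gene probe set in the annotation used here. A probe set annotated to pex26 together with another gene was not used. The gene family was proposed with earlier results of this contrast known, so the mutant and wildtype values of these 13 genes are given as a description, without p-values. UHRF1 binds hemimethylated DNA at replication forks and recruits the maintenance methyltransferase DNMT1.

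There were 2 samples labelled UHRF1 mutant (replicates 1 and 2) and 2 labelled Wildtype (replicates 1 and 3), each hybridised to its own array, all from larvae at 120 hours post fertilization by the source label. The growth protocol names the progeny of heterozygous carriers of the allele uhrf1hi272 as the fish of most experiments of the study, and also a line with a human UHRF1-GFP fusion under the liver promoter fabp10. It does not say which of them these arrays hold, and no label states the allele of each sample. Neither are clutches, or whether a sample was a pool, given, so the spread between arrays may be technical. In RNA from whole larvae, fewer cells of a type and less RNA per cell cannot be told apart.

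Peroxisomes are small organelles that oxidise fatty acids, purines, glycolate and D-amino acids with oxidases that release hydrogen peroxide, which catalase in the same compartment breaks down. Matrix enzymes are made in the cytosol and brought in by peroxins, and membrane transporters of the ABCD family bring in acyl-CoA substrates. The liver and the kidney tubule are rich in peroxisomes, and in vertebrates several of the enzymes below are made mainly by hepatocytes.

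Values are RMA intensities on a linear scale, and log2 changes are mutant minus wildtype on log2(intensity + 1) with the moderated standard error (SE) of a limma fit to all probe sets. A gene is called where the adjusted p of that fit, over all 15502 probe sets, is under 0.05. The median intensity per array lay between 29.4 and 31.5. The 18 probe sets for hybridisation controls, which are foreign transcripts spiked in before hybridisation, averaged 0.49 lower (log2) in mutants, and the median log2 change of all genes was -0.06 in the deposited values and 0.43 after scaling the arrays on those controls. Each change is thus given against the bulk of the genes. The targeted gene uhrf1 read 41.1 and 26.3 on the mutant arrays, against 47.4 and 41.5 on the wildtype arrays, with a log2 change of -0.42 ± 0.23 (SE) and a limma adjusted p of 0.56. The position of its probes against the mutated site was not known here, and the level therefore does not check the labels.

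Among the peroxisomal genes, the enzymes uox, agxta and cat and the transporter abcd3a were lower in mutant larvae, and no peroxin was called. In all, 4 of the 13 were called lower and 0 higher, where 0.967% of all genes were called lower and 1.03% higher. Both mutant arrays lay below both wildtype arrays for 7 of the 13, where this holds for 29.3% of all genes, and above them for 1 of the 13, where this holds for 15.2% of all genes. The median log2 change of the 13 was -0.22, beside -0.06 for all genes. As the family was proposed with these values known, its counts say nothing beyond the values themselves.

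**Figure D1:**
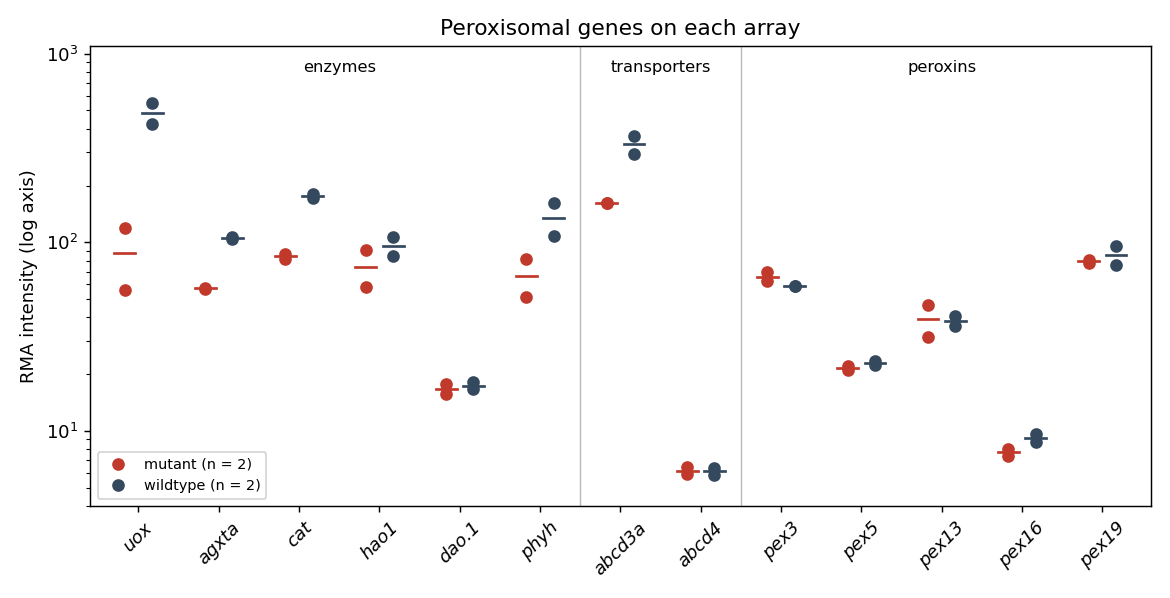
RMA intensity (log axis) of the 13 peroxisomal genes on each array, with mutant arrays in red left of wildtype arrays in dark blue; points are single arrays and bars are means of 2 arrays. The groups are well apart for uox, agxta, cat and abcd3a, while the peroxins lie close together.

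The lowest log2 change among the enzymes was that of uox, urate oxidase, which turns urate into the precursor of allantoin and releases hydrogen peroxide. It read 56.0 and 119 on the mutant arrays, against 426 and 547 on the wildtype arrays. All mutant values lay below all wildtype values, but the mutant arrays were 1.08 apart on the log2 scale, against 0.36 for the wildtype arrays. The means were 87.7 ± 44.9 in mutants and 487 ± 85.9 in wildtype larvae (SD, n = 2 each), a 5.55-fold lower mean and a log2 change of -2.55 ± 0.35 (SE). Only 0.273% of the 8793 genes had a lower change. The change ranged from -3.09 without mutant replicate 2 to -2.01 without mutant replicate 1, and uox was called in each of the 4 fits that left out an array. Quantile normalization, a pseudocount of 16 and the unmoderated model did not call it, at log2 changes of -2.50, -2.34 and -2.55.

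Catalase, the product of cat, breaks hydrogen peroxide down to water and oxygen. It read 86.8 and 81.8 on the mutant arrays, against 172 and 180 on the wildtype arrays. The mutant arrays were 0.08 and the wildtype arrays 0.06 apart on the log2 scale, and the groups did not overlap. The log2 change was -1.05 ± 0.13 (SE), with means of 84.3 ± 3.51 in mutants and 176 ± 5.62 in wildtype larvae (SD, n = 2 each). The call was lost with mutant replicate 1, mutant replicate 2 or wildtype replicate 3 left out, and the change then stayed between -1.10 and -1.01.

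The pair hao1 and agxta act in sequence on glyoxylate. Glycolate oxidase, from hao1, makes glyoxylate from glycolate, and alanine-glyoxylate aminotransferase, from agxta, turns glyoxylate into glycine; loss of the human counterpart of agxta causes primary hyperoxaluria. For agxta the mutant arrays read 56.8 and 57.4, against 107 and 104 on the wildtype arrays. The arrays were 0.01 apart in mutants and 0.04 in wildtype larvae on the log2 scale, the groups did not overlap, and the log2 change was -0.87 ± 0.13 (SE). For hao1 the mutant arrays read 57.7 and 91.0, against 84.9 and 106 on the wildtype arrays. These groups overlapped, since mutant replicate 2 lay above wildtype replicate 1, and the log2 change of -0.39 ± 0.24 (SE) was not called. The call of agxta was lost in each of the 4 fits with an array left out, at changes of -0.89 to -0.85.

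Phytanoyl-CoA hydroxylase, from phyh, starts the alpha-oxidation of branched fatty acids, and loss of its human counterpart causes Refsum disease. It read 81.2 and 51.5 on the mutant arrays, against 108 and 161 on the wildtype arrays. The groups did not overlap, but the arrays of each group were 0.65 (mutant) and 0.58 (wildtype) apart on the log2 scale. The log2 change of -1.01 ± 0.28 (SE) was of the size of that of cat, with a wider error, and was not called. D-amino acid oxidase, from dao.1, read 15.6 and 17.6 on the mutant arrays, against 18.1 and 16.6 on the wildtype arrays, which overlapped, with a log2 change of -0.06 ± 0.14 (SE). Its level was low on the array, with 33.7% of probe sets dimmer, and RMA understates changes of dim probe sets.

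Among the transporters, abcd3a encodes a zebrafish counterpart of ABCD3, also known as PMP70, an abundant protein of the peroxisomal membrane that takes up branched-chain acyl-CoAs and bile acid precursors in mammals. It read 162 and 161 on the mutant arrays, against 296 and 365 on the wildtype arrays. The mutant arrays were 0.01 apart on the log2 scale and the wildtype arrays 0.30, with no overlap between groups. The log2 change was -1.02 ± 0.16 (SE), with means of 161 ± 0.813 in mutants and 330 ± 49.3 in wildtype larvae (SD, n = 2 each). It was not called without mutant replicate 1, without mutant replicate 2 or without wildtype replicate 3, where its change was -1.03, -1.02 and -0.87. The other family member, abcd4, whose human counterpart acts in lysosomal cobalamin transport and not in peroxisomes, read 5.88 and 6.40 on the mutant arrays, against 6.38 and 5.86 on the wildtype arrays. With 2.08% of probe sets dimmer, abcd4 lay near the lowest signals of the array, and its log2 change was 0.00 ± 0.14 (SE).

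Peroxins build the organelle. pex3, pex16 and pex19 place proteins in the peroxisomal membrane, pex5 is the receptor that carries matrix enzymes with a C-terminal signal, and pex13 is part of the docking complex that receives it. Of these 5 genes 0 were called, where 2.00% of all genes were called in either direction, so this count does not set the peroxins apart. Their log2 changes lay between -0.22 and 0.16, with a median of -0.08.

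The highest change among the peroxins was that of pex3, which read 69.2 and 62.2 on the mutant arrays, against 58.7 and 58.5 on the wildtype arrays. Its groups did not overlap, with a log2 change of 0.16 ± 0.14 (SE). Its partner pex19 read 80.4 and 78.1 on the mutant arrays, against 95.1 and 76.1 on the wildtype arrays, a log2 change of -0.10 ± 0.16 (SE) between groups that overlapped. The membrane factor pex16 was dim, at 7.39 and 8.05 on the mutant arrays, against 8.67 and 9.63 on the wildtype arrays. Its groups did not overlap, and the log2 change was -0.22 ± 0.14 (SE).

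The import receptor pex5 read 22.0 and 21.1 on the mutant arrays, against 23.4 and 22.2 on the wildtype arrays. These groups did not overlap but lay close together, with a log2 change of -0.08 ± 0.13 (SE). The docking gene pex13 read 46.6 and 31.3 on the mutant arrays, against 40.5 and 36.2 on the wildtype arrays. The mutant arrays stood on either side of the wildtype arrays, 0.56 apart on the log2 scale, and the log2 change was 0.00 ± 0.21 (SE).

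**Figure D2:**
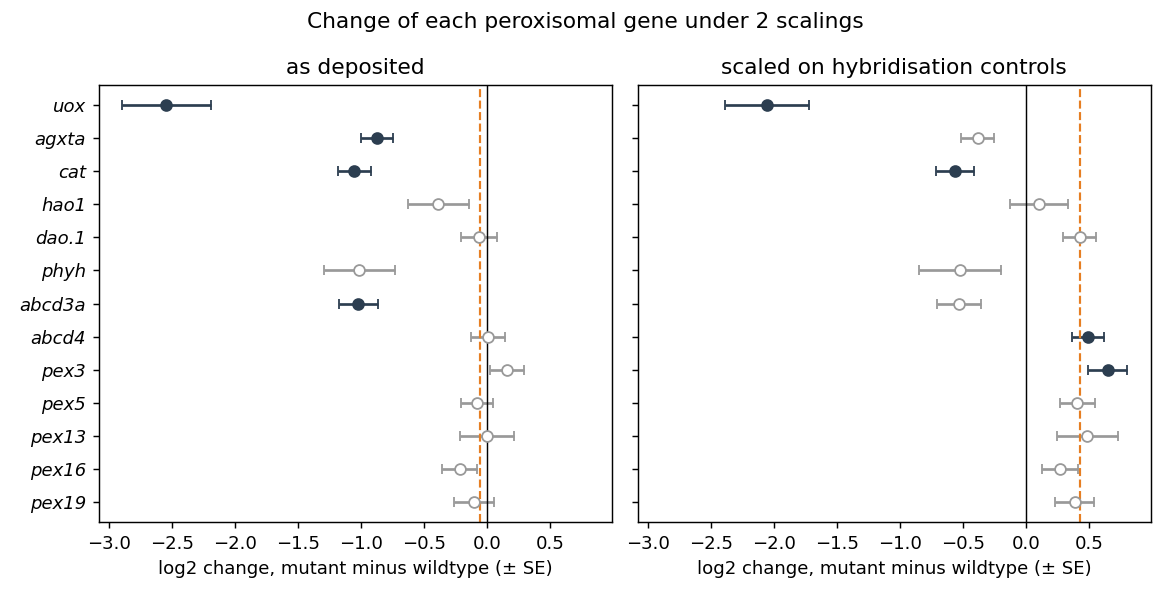
Log2 change, mutant minus wildtype, of each of the 13 genes with its SE, as deposited (left) and with arrays scaled on the hybridisation controls (right); filled points were called, the solid line marks 0 and the dashed line the median of all genes, -0.06 and 0.43. uox, agxta, cat, phyh and abcd3a stay left of both lines under both scalings.

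Scaling on the hybridisation controls moved every log2 change upward by the same 0.49. Under it uox changed by -2.06 ± 0.33, cat by -0.56 ± 0.15, abcd3a by -0.53 ± 0.18, phyh by -0.52 ± 0.32 and agxta by -0.38 ± 0.13 (SE, log2), all still below 0, with uox and cat called. The values of hao1, dao.1, pex5, pex16 and pex19, below 0 as deposited, turned to between 0.10 and 0.43, and that of pex13 to 0.49. pex3, at 0.65 ± 0.15 (SE, log2), and the dim abcd4 were called higher, beside 2754 genes called higher in all. The absolute direction of the smaller changes is thus not fixed by these arrays, while this shift leaves the order of the genes as it was. Quantile normalization called agxta and cat, median centring these and uox, a pseudocount of 16 called cat alone, and the unmoderated model called none of the 13.

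Other genes linked to the organelle, read below as other peroxisomal genes, came from a list that held none of the 13 genes. Some of its genes, such as sod1, prdx1 and dnm1l, are not confined to peroxisomes. This list was also chosen with earlier results of these data known, so its counts and p-values are a description only. Of its 32 measured genes 1 was lower, 0 were higher and 31 did not pass. Their log2 changes had a median of -0.21, beside -0.06 for all genes, and 27 of the 32 (84.4%) lay below 0, against 61.3% of all genes. An unadjusted limma p under 0.05 was reached by 7 of the 32, where 14.7% of all genes reach it. The gene that fell was scp2a, a sterol carrier protein gene whose mammalian counterpart also encodes a thiolase for branched-chain acyl-CoAs. It read 205 and 242 on the mutant arrays, against 462 and 563 on the wildtype arrays, with a log2 change of -1.19 ± 0.17 (SE) and a limma adjusted p of 0.033. The groups did not overlap. The call was lost without mutant replicate 1, without mutant replicate 2 and without wildtype replicate 3, at limma adjusted p-values of 0.11, 0.069 and 0.058, and over all alternatives the adjusted p ranged from 0.0086 to 0.53.

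Further genes of that list, named after their values were seen, did not pass. The NADP-dependent dehydrogenase gene idh1 read 419 and 427 on the mutant arrays, against 656 and 746 on the wildtype arrays, a log2 change of -0.73 ± 0.14 (SE) at a limma adjusted p of 0.082. hsd17b4, the multifunctional enzyme of peroxisomal beta-oxidation, changed by -0.62 ± 0.14 (SE, log2), at a limma adjusted p of 0.15. The other multifunctional enzyme, ehhadh, changed by -0.38 ± 0.16 (SE, log2). The ether lipid synthesis genes agps, gnpat and far1 changed by 0.06 ± 0.14, -0.04 ± 0.15 and -0.20 ± 0.19 (SE, log2), and gnpat was dim, at 9.45 to 11.1 intensity units over the 4 arrays.

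Genes linked to these enzymes by pathway or regulation were read from further lists, likewise chosen with earlier results of these data known. In the deposited values no gene of the 5 lists described here passed in either direction. After scaling on the hybridisation controls 2754 genes were called higher in all. These held 1 gene of the glyoxylate list, 1 of the purine list, 4 of the peroxide removal list, 5 of the mitochondrial list and 0 of the nuclear receptor list. In the glyoxylate list, the median was -0.10 and 0 of 9 passed by limma (3 at an unadjusted p under 0.05, which 14.7% of all genes reach). Its gene with the smallest p was grhprb, a glyoxylate and hydroxypyruvate reductase, at 42.1 and 70.8 on the mutant arrays, against 118 and 105 on the wildtype arrays. These groups did not overlap, and the log2 change was -1.01 ± 0.25 (SE), at a limma adjusted p of 0.17. Without mutant replicate 2 grhprb was called lower, at a limma adjusted p of 0.044, in a range of 0.044 to 0.68 over all alternatives. In the purine breakdown list, 0 of 7 passed by limma (1 at an unadjusted p under 0.05), with a median of -0.10. Its guanine deaminase gene gda read 21.4 and 43.9 on the mutant arrays, against 55.7 and 101 on the wildtype arrays, a log2 change of -1.26 ± 0.40 (SE) at a limma adjusted p of 0.28. The other 6 purine genes had log2 changes between -0.19 and 0.04, and pnp6 lay near the lowest signals, with 0.148% of probe sets dimmer. Only 7 of the 23 genes of the purine list were measured. Its genes for the steps close to uox, xdh, uraha, urahb, urah and urad, were not among them, and neither was allc.

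The list of peroxide removal genes outside the peroxisome also held related redox genes, such as sod2, nqo1, gclc and gclm. Of its measured genes 0 of 15 passed by limma (6 at an unadjusted p under 0.05, which 14.7% of all genes reach), with 10 values below 0 and 5 above it. Their median was -0.13. The glutathione peroxidase gene gpx1b had the smallest p and was above wildtype, at 350 and 376 on the mutant arrays, against 220 and 270 on the wildtype arrays, a log2 change of 0.57 ± 0.16 (SE) at a limma adjusted p of 0.21. The groups of gpx1b did not overlap and lay the opposite way to those of cat. Its paralog gpx1a, named after its values were seen, lay the same way as cat, at -0.56 ± 0.18 (SE, log2), and did not pass. Both mutant arrays lay below both wildtype arrays for 7 of the 15 (29.3% of all genes) and above them for 4 (15.2% of all genes). The list thus had no common rise. With arrays scaled on the hybridisation controls gpx1b was called higher, at a limma adjusted p of 0.029, in a range of 0.029 to 0.62 over all alternatives. The list of PPAR, RXR and related genes had 8 of its 19 genes measured, and none of these was a PPAR gene. They were rxrga, rxrab, rxrba, rxrbb, hnf4a, hnf4g, nr1h3 and the coactivator gene ppargc1b. The PPAR receptors that control peroxisomal genes in mammals were thus not read. Of the measured genes 0 of 8 passed by limma (1 at an unadjusted p under 0.05). All 8 values lay below 0, with a median of -0.26, and rxrga had the smallest p, at a log2 change of -0.42 ± 0.13 (SE) and a limma adjusted p of 0.29. Scaled on the hybridisation controls, rxrga changed by 0.07 ± 0.13 (SE, log2).

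Fatty acids are also oxidised in mitochondria. Of the mitochondrial beta-oxidation genes 0 of 23 passed by limma (10 at an unadjusted p under 0.05, which 14.7% of all genes reach). Their median log2 change was -0.34, with 18 values below 0. The carnitine carrier gene slc25a20 had the smallest p, at 173 and 204 on the mutant arrays, against 329 and 286 on the wildtype arrays, a log2 change of -0.70 ± 0.16 (SE) and a limma adjusted p of 0.13. No mitochondrial value was as low as those of uox, cat, abcd3a, phyh and agxta, which are the lowest of the 13 peroxisomal genes. As a whole the mitochondrial list had the lower median, -0.34 beside -0.22 for the 13. Whether the lists differ was not tested.

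**Figure D3:**
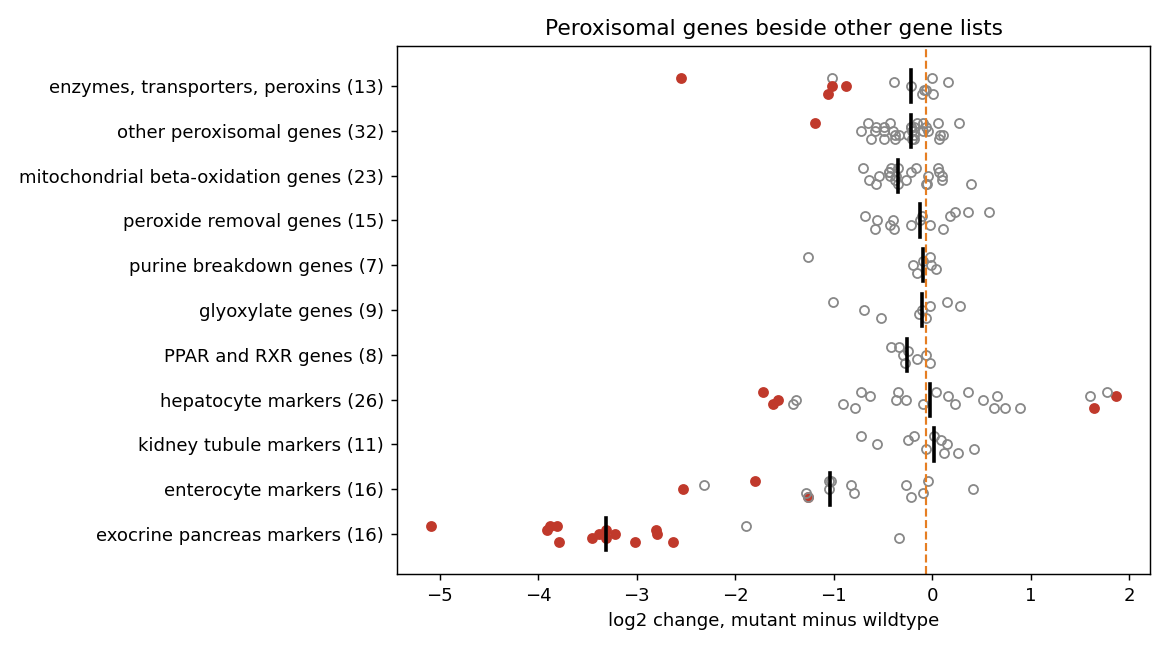
Log2 change, mutant minus wildtype, of each gene (points; filled where called) in the 13 peroxisomal genes at the top and in 10 other lists, with the number of measured genes in brackets; black bars are list medians and the dashed line is the median of all genes, -0.06. The exocrine pancreas and enterocyte lists lie lowest, and the hepatocyte list spreads to both sides.

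Markers of the cell types that make these enzymes or were lower in mutants were read beside them. These lists were chosen with earlier results of these data known, so their counts, sums and p-values are a description only. Of the hepatocyte markers 3 of 26 fell, 2 rose and 21 did not pass; their median was -0.02, so the liver list had no common direction. The enzyme genes hpda and hgd of tyrosine breakdown fell by 1.71 and 1.56 on the log2 scale, with limma adjusted p-values of 0.0065 and 0.011, and the fibrinogen gene fgg rose by 1.65 ± 0.23 (SE), at a limma adjusted p of 0.034. Scaling on the spiked controls gave 10 of the 26 higher, where 2754 of all 8793 genes were called higher. A pseudocount of 16 gave 0 higher and 1 lower hepatocyte gene. The call of hgd was lost without mutant replicate 1, at a limma adjusted p of 0.051 (0.0017 to 0.48 over all alternatives). The hepatocyte-specific fatty acid binding protein gene fabp10a, named after its values were seen, read 863 and 1469 on the mutant arrays, against 1639 and 2715 on the wildtype arrays. Its log2 change was -0.91 ± 0.33 (SE), and with a limma adjusted p of 0.35 it did not pass.

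The summed intensity of the hepatocyte markers, as a percentage of the wildtype mean, was 81.5% and 114% on the mutant arrays, against 92.3% and 108% on the wildtype arrays, so these groups overlapped. Bright genes went both ways in this sum. fgg read 1279 and 2022 on the mutant arrays, against 533 and 495 on the wildtype arrays, and tfa 775 and 1830, against 2955 and 3425. With 13 values below 0 and 13 above it, the sum does not measure the amount of hepatocytes. That of the 13 peroxisomal genes was 47.7% and 50.2% on the mutant arrays, against 92.2% and 108% on the wildtype arrays, a sum in which the bright uox and abcd3a weigh most. The 32 other peroxisomal genes stood at 70.0% and 77.0% on the mutant arrays, against 96.2% and 104% on the wildtype arrays. In this sum the bright sod1, idh1 and prdx5 weigh most, with wildtype means of 947, 701 and 620. The largest difference between group means within it was that of scp2a, at 223 in mutants and 513 in wildtype larvae. The hepatocyte sum, like uox, was lower in mutant replicate 1 than in mutant replicate 2. So were the sums of the other peroxisomal genes, the enterocyte markers, the PPAR and RXR list and the peroxide removal list. Those of the kidney, exocrine pancreas, mitochondrial, purine and glyoxylate lists were lower in mutant replicate 2. Among the 13 genes the order went both ways, with cat and phyh lower in mutant replicate 2. The part of hepatocytes in the peroxisomal values was not tested.

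Other organs gave lower sums too, in lists chosen with such results known. The enterocyte markers summed to 36.5% and 52.9% on the mutant arrays, against 93.0% and 107% on the wildtype arrays, and 3 of 16 fell, 0 rose and 13 did not pass, at a median log2 change of -1.03. The 3 were fabp6, fabp2 and mep1a.1, with log2 changes of -1.80, -2.53 and -1.26 and limma adjusted p-values of 0.010, 0.031 and 0.043. Leaving out mutant replicate 2, wildtype replicate 1 or wildtype replicate 3 gave 5, 6 and 5 lower enterocyte genes and a pseudocount of 16 gave 0, and mep1a.1 was not called under quantile normalization, without mutant replicate 1 or without wildtype replicate 1, at limma adjusted p-values of 0.057, 0.097 and 0.051 (0.013 to 0.57 over all alternatives). The exocrine pancreas markers summed to 11.1% and 10.4% on the mutant arrays, against 85.4% and 115% on the wildtype arrays, with 14 of 16 lower and none higher; amy2a, cpb1 and sycn.2, which encode secreted or zymogen granule proteins, had the smallest p, with log2 changes of -5.09, -3.22 and -3.79. Of the kidney tubule markers 0 of 11 passed by limma (2 at an unadjusted p under 0.05, which 14.7% of all genes reach), with a median of 0.02. Their sums were 86.5% and 82.6% on the mutant arrays, against 99.9% and 100.1% on the wildtype arrays. The bright atp1a1a.4 weighs most in this difference, at 337 and 307 on the mutant arrays, against 561 and 501 on the wildtype arrays. The also bright ca2 lay the other way, and 6 of the 11 values were above 0, so the measured markers had no common direction. Only 11 of the 21 genes of the kidney list were measured, and lrp2a, cubn and slc5a2 were not among them. The smallest p of the kidney list was that of atp1a1a.4, a sodium pump subunit gene, with a log2 change of -0.72 ± 0.14 (SE) and a limma adjusted p of 0.089. After scaling on the hybridisation controls 4 of the 11 were called higher, where 2754 of all 8793 genes were called higher. The part of these tissues in the peroxisomal values was not tested.

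**Figure D4:**
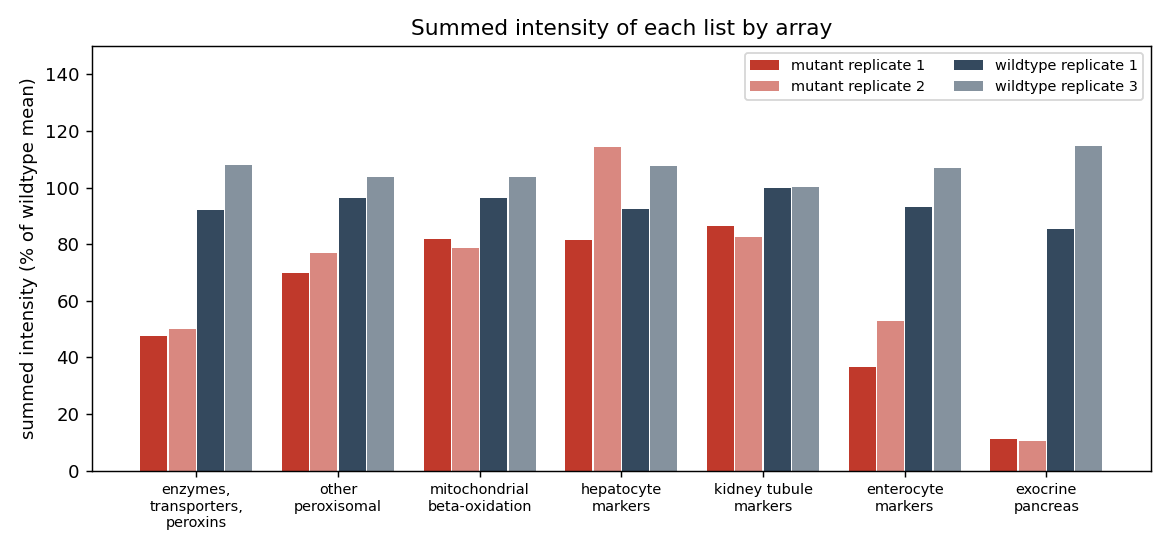
Summed intensity of each list on each array, as a percentage of the wildtype mean, with the 2 mutant arrays in red left of the 2 wildtype arrays in dark blue. The 13 peroxisomal genes lie at 47.7% and 50.2% on the mutant arrays, between the enterocyte list's 36.5% and 52.9%, while the hepatocyte markers of mutant replicate 2 exceed both wildtype arrays.

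The 5 genes outside the rule whose values over the 4 arrays were closest to those of uox, by Euclidean distance of log2 values centred on each gene's mean, were fabp2, pklr, aqp12, fabp1b.1 and cela1.6, at distances of 0.18, 0.52, 0.56, 0.60 and 0.65. fabp2 and fabp1b.1, both in the enterocyte list, encode fatty acid binding proteins, and pklr encodes pyruvate kinase. The aquaporin gene aqp12 and the elastase gene cela1.6 are exocrine pancreas genes, though not in the list of that tissue. fabp2 read 209 and 452 on the mutant arrays, against 1707 and 1847 on the wildtype arrays, and like uox it was lower in mutant replicate 1 than in mutant replicate 2. All 5 were lower in mutant larvae on both arrays, with log2 changes of -2.79 to -2.19, and of these fabp1b.1 was not called. With 4 arrays in 2 groups this closeness mostly measures the size of the difference between groups, and it is a description only.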

How the data were processed

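Total RNA of 4 whole-larva samples had been extracted with TRIzol and hybridised to 1-colour Affymetrix zebrafish arrays, per the labels' protocols. The deposited intensity values were made by the authors with RMA, per the submitters' processing notes, which background-corrects, quantile-normalizes and summarises probes; the RMA version and options are not given here. Values are linear, without detection calls, and the number of arrays limits the precision.

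Of 15617 probe sets, 115 array controls were left out. Platform annotation named exactly 1 gene for 10795, several for 135 and none for 4572, with symbols updated through RefSeq gene IDs. A gene with several probe sets was read from the brightest of them by mean. log2(intensity + 1) was modelled in R 4.3.3 using limma 3.58.1 (lmFit, eBayes; 2 residual and 4.04 prior degrees of freedom), mutant against wildtype, two-sided, with Benjamini-Hochberg adjustment over 15502 probe sets. The fit was also run on data simulated from its own model, which cannot show how reliable calls from 2 arrays per group are.

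The members and the 10 lists were chosen with earlier results of these data known. From each list up to 3 called genes with the smallest p are named, or 1 where none was called; others are marked. All 13 members, uhrf1 and the 5 genes closest to uox are also named. Alternatives were other scalings, filters, priors, a pseudocount of 16, averaged probe sets, an adjusted p under 0.1 and leaving out each array.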

Additional observations from a re-analysis of the deposited data

How the results depend on the processing

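Of the 13 peroxisomal genes, 4 were called lower as reported and with the dimmest 25% of probe sets removed, an intensity-dependent robust prior, averaged probe sets or an adjusted p under 0.1, and 3 with median centring. The count was 2 with quantile normalization (agxta and cat), 2 with arrays scaled on the hybridisation controls (cat and uox), 1 with a pseudocount of 16 (cat) and 0 with the unmoderated model, which called 0 of all 8793 genes. It was 1 to 3 when an array was left out, where the lone array of a group is assumed to vary like the others; uox was in each of these, and fewer arrays leave fewer degrees of freedom. The number called higher was 2 after scaling on the hybridisation controls and 0 elsewhere. The median log2 change of the 13 was 0.27 with arrays scaled on the controls, below the 0.43 of all genes, -0.39 without the dimmest probe sets, where 11 of the 13 genes were left, and -0.087 with a pseudocount of 16. Of the other peroxisomal genes, 0 were lower with the unmoderated model and with a pseudocount of 16, and 2 at an adjusted p under 0.1. With arrays scaled on the controls 5 of these 32 were higher, where 2754 of all 8793 genes were called higher. rxrga changed by 0.073 there. uox, agxta, cat, phyh and abcd3a had values below 0 under all 13 alternatives. The dim filter, the robust prior, the unmoderated model, averaged probe sets and the looser threshold cannot change these values, as each gene has a single probe set. Those settings therefore do not test the sign, and a looser threshold cannot lose a call. The cause of the differences between settings was not tested. No paired analysis was possible because the groups share only 1 replicate number.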
